A study of Mus musculus with 23 samples.

Results

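The genes described are 134 mouse zinc finger genes that carried RNA polymerase II at a gene end and no H3K9me3 inside the gene, out of 388 zinc finger genes by symbol and 21887 protein-coding genes in all. They were taken by a rule: a symbol of exactly Zfp, Zscan or Zkscan plus a number (Zfp36, which encodes a protein of another kind, was left out), no H3K9me3 peak in the gene's span, and a peak of RNA polymerase II no more than 3000 bp from either end. The genes were thus chosen by the presence of an RNA polymerase II peak and the absence of an H3K9me3 peak. The peaks came from CUT&Tag, where a transposase tethered through an antibody inserts sequencing adapters around the antibody's target, on CD4+ naive T cells of spleen and pLN from DDX55 knockout (DDX55 KO) and wild-type (WT) mice. DDX55 is a DEAD-box RNA helicase.

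Each of the targets RNA polymerase II, H3K9me3 and DDX55 was profiled in 4 samples, 2 from DDX55 KO and 2 from WT mice. R-loops, stretches where RNA stays paired to its template DNA, were profiled with the S9.6 antibody in 8 samples, 4 per genotype, and 4 of these had 20 U of RNase H. There were also 2 HA samples and 1 IgG sample, all WT. The labels name neither the allele nor the age of the mice, nor whether mice were pooled. The values are 1 merged list of peak positions per target, named in the labels of both genotypes alike. The lists held 10924 RNA polymerase II, 16738 H3K9me3, 1499 R-loop and 243 DDX55 peaks, with no height, no count and no value per sample. Depth is therefore unknown, no difference between DDX55 KO and WT cells and no spread between replicates could be measured, and all values below are descriptions without a test. A gene end with a peak can mean a little signal in all cells or more in some, and these cannot be told apart. Of 8 marker genes of CD4 naive T cells reported here, 7 had an RNA polymerase II peak at an end, Cd3d, Cd3e, Cd3g, Cd4, Il7r, Ccr7 and Lef1, while Tcf7 had none. Cd4 also had H3K9me3 in its span. The widest peaks of the neighbours Cd3d and Cd3g were both 844 bp and may be 1 shared peak. Markers of other cells had such a peak at 1 of 3 erythroid genes (Epor), 0 of 4 myeloid genes, 1 of 4 B cell genes (Cd79a) and, among genes of CD8 T and NK cells, 1 of 4 (Prf1).

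Most of these genes encode proteins with tandem C2H2 zinc fingers, each finger a short fold held by a zinc ion that can read a few bases of DNA. In mammals many of them also carry a KRAB or a SCAN domain. KRAB zinc finger proteins bring the corepressor TRIM28 and the methyltransferase SETDB1 to transposable elements, where H3K9me3, a mark of silent chromatin, is laid down, and zinc finger genes themselves, often in clusters of near copies, are known as carriers of that mark. RNA polymerase II at the start of a gene marks a promoter that the transcription machinery has reached.

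Zinc finger genes met RNA polymerase II somewhat more often than genes at large and H3K9me3 far more often. A peak of RNA polymerase II lay at an end of 41.8% of them, against 33.5% of all protein-coding genes, and H3K9me3 lay in the span of 25%, against 5.4%. The 134 genes with the first and without the second were 34.5% of the family, where the same combination was found in 32.7% of all protein-coding genes. A further 28 zinc finger genes had both marks, 69 had only H3K9me3 and 157 had neither. By name, 125 of 366 Zfp, 6 of 11 Zscan and 3 of 11 Zkscan genes were in the set. These shares rest on the peaks that chose the genes and are given as a description.

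The widest RNA polymerase II peaks stood at Zfp143, Zfp703 and Zfp335. Zfp143 encodes a factor that binds the promoters of many housekeeping and small nuclear RNA genes, and it lies on chromosome 7 from 110061689 to 110095396 (GRCm38, the coordinates of mm10). Its peak was 2019 bp wide, from 110060183 to 110062201, and its edges stood at -1506 and 512 bp from the nearest annotated start, negative being upstream. No other annotated start lay inside the peak. Zfp335, which in mice is needed for T cells to accumulate after they leave the thymus, had a peak of 1603 bp on chromosome 2 from 164910794 to 164912396, over its own start and that of the antisense gene Zfp335os. Zfp703, whose human counterpart is a breast cancer gene, had a peak of 1682 bp that lay wholly within its span of 26977336 to 26981462 on chromosome 8. The next were Zfp622, whose human counterpart acts in the making of the large ribosomal subunit, with 1427 bp, Zfp277 with 1373 bp, Zfp51 with 1357 bp, Zfp687 with 1344 bp, the ubiquitin ligase gene Zfp91 with 1335 bp, and the neighbours Zfp942 and Zfp943, which shared a peak of 1334 bp.

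The bases just upstream of the starts of Zfp143, Zfp335 and Zfp943 are shown because these starts lay under 3 of the widest peaks. They come from RefSeq (GRCm38.p6), 5′ to 3′ on the gene's own strand, each 250 bases up to the base before the most upstream start listed. Capitals mark matches to 3 of 8 short motifs described further on: GGGCGG and CCAAT in Zfp143, TGACGTCA in Zfp335 and, as CCGCCC on the strand shown, GGGCGG in Zfp943. The windows are chr7:110061452-110061701 (plus strand) for Zfp143, chr2:164911751-164912000 (minus strand) for Zfp335 and chr17:21962309-21962558 (plus strand) for Zfp943.
Zfp143: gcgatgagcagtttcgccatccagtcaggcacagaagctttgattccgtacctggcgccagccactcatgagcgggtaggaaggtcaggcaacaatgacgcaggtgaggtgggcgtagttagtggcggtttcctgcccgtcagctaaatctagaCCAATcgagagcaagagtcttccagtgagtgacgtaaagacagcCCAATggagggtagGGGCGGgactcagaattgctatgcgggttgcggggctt
Zfp335: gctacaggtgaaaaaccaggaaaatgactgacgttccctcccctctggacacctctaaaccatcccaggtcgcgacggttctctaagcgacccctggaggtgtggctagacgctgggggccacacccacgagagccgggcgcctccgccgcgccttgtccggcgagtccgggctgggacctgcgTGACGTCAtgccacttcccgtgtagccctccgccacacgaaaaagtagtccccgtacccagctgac
Zfp943: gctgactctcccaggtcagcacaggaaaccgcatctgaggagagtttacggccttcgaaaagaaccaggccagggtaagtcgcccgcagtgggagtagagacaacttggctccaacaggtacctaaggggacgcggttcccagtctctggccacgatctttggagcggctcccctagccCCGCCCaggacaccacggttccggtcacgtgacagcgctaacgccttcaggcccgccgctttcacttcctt
The promoter window of Zfp143, which adds 50 bases after the start, had a GC content of 58.7% and 18 CpG dinucleotides, that of Zfp335 63.0% and 22, and that of Zfp943 59.7% and 21.

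By the widest peak at an end, zinc finger genes had narrower peaks than other genes with the same marks. The widest peak at an end had a median width of 634 bp over the 134 genes (interquartile range 487 to 881 bp), against 781.5 bp (540 to 1079 bp) over 7018 other protein-coding genes with RNA polymerase II and no H3K9me3. A width of 1000 bp or more was reached by 23 of the 134 (17.2%), against 30.8% of the others. The 28 zinc finger genes with H3K9me3 as well had a median of 635.5 bp, close to the genes without it. The 5 narrowest were at Zfp74 (208 bp), Zfp628 (255 bp), Zfp472 (256 bp), Zfp275 (298 bp) and Zfp638 (304 bp). The human counterpart of Zfp638 encodes a DNA-binding protein that helps silence retroviral DNA before it integrates. The other genes more often had 2 or more peaks (18% against 12.7%), which gives more chances of a wide one. Whether this bears on the medians was not tested. Width stands in for strength only in part, since neighbouring starts can join into 1 peak.

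**Figure D1:**
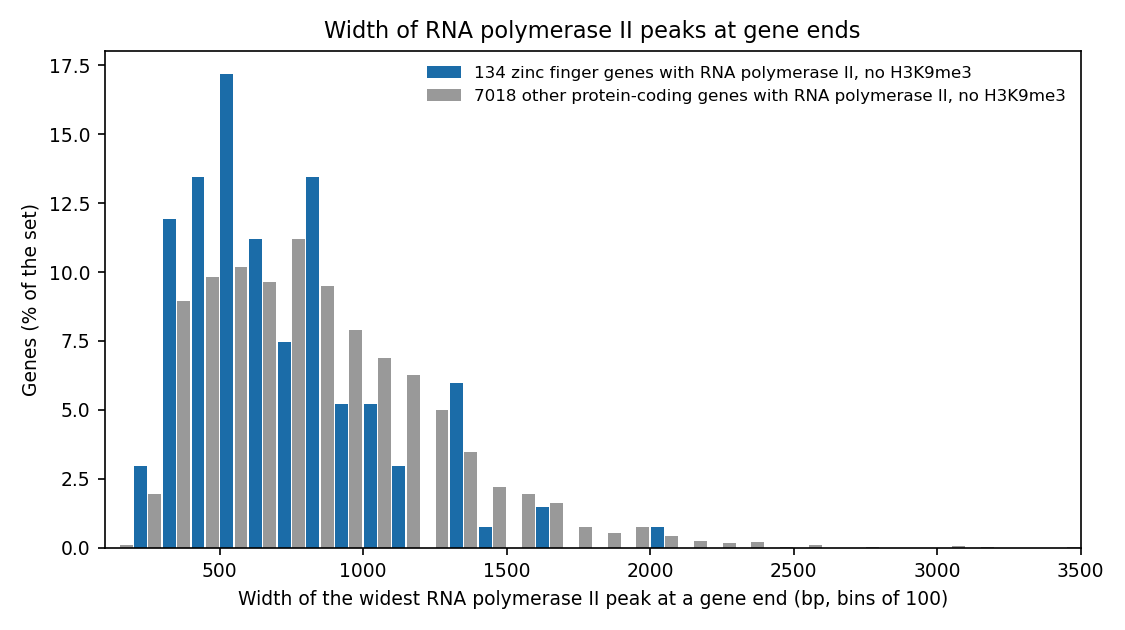
Share of genes (%, vertical axis) by the width in bp of the widest RNA polymerase II peak at a gene end (horizontal axis, bins of 100 bp). Blue bars are the 134 zinc finger genes with RNA polymerase II and no H3K9me3, and grey bars the 7018 other protein-coding genes with the same marks. The blue bars gather at lower widths, with a median of 634 bp against 781.5 bp.

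Most of the peaks sat at the gene's own start. A start, meaning a start listed by RefSeq or the upstream end of the span, was known for 116 of the 134 genes. Only peaks within 3000 bp of a gene end were considered, so a peak at a listed start deeper in the gene was not counted. In 80 of these (69.0%) a peak covered a start, against 66.2% of the 5896 protein-coding genes with the same marks and a known start. In another 29 the peak lay within 500 bp of a start without covering it. These peaks were narrow, with a median of 420 bp against 699.5 bp for peaks over a start, and 19 of the 29 had their midpoint downstream. A wider peak is more likely to reach over a start, so the sorting itself bears on these widths. The counts of 29 and 19 were not computed for other genes. Examples of peaks beside a start are those of the stem cell factor gene Zfp281, 67 bp from its start, of the RNA-binding protein gene Zfp106, at 27 bp, and of Zfp148, whose product binds GC-rich promoters, at 23 bp. Where a peak covered the start its midpoint lay a median of 26 bp downstream, and 43 of the 80 midpoints were downstream, a share of 53.8%, against 57.6% over the other genes with these marks.

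**Figure D2:**
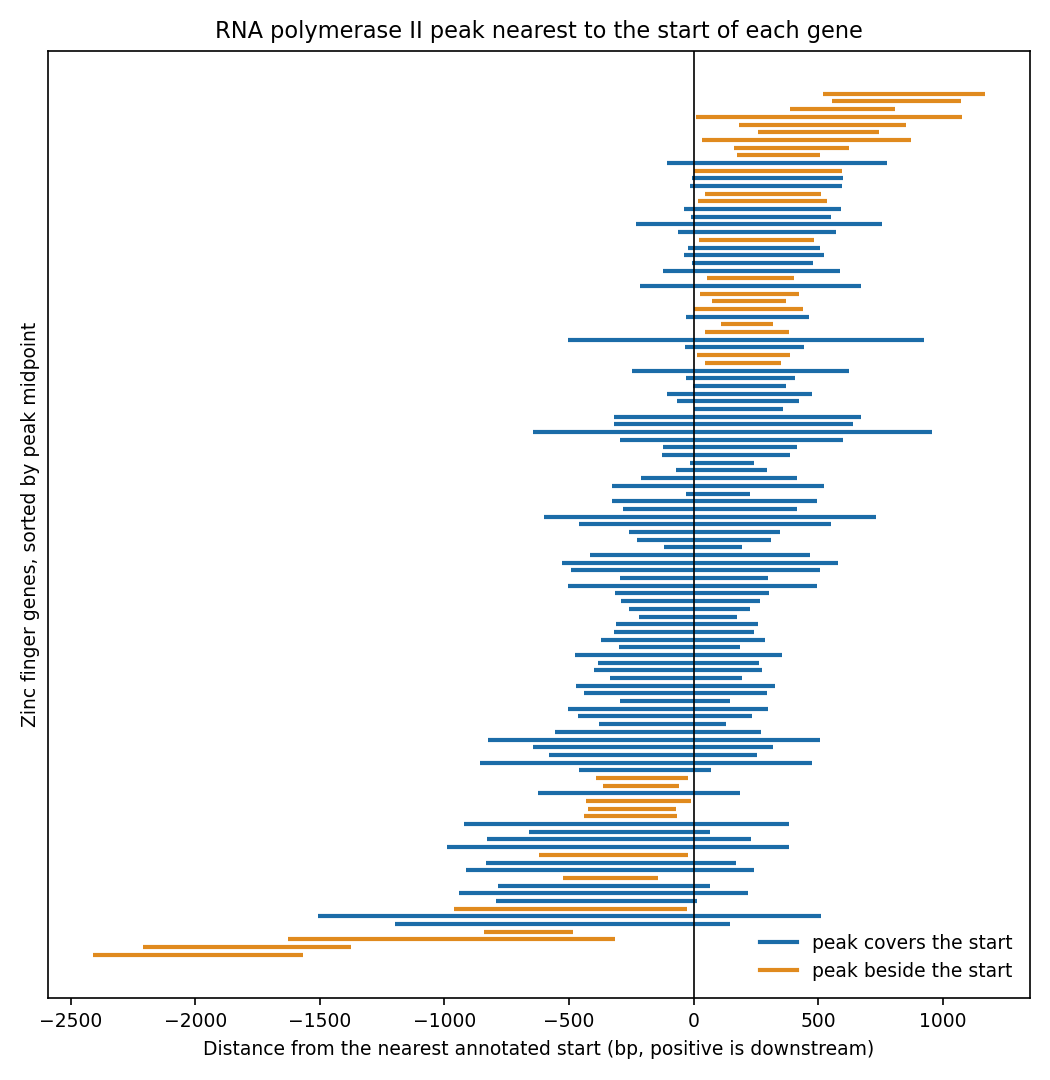
Extent of the RNA polymerase II peak nearest to the start, among peaks at a gene end, for zinc finger genes with RNA polymerase II and no H3K9me3. The horizontal axis is the distance from the nearest annotated start in bp, positive downstream, with 1 line per gene, sorted by midpoint, for genes whose peak lies within 3000 bp of a start. Blue lines (80 genes) cross the start, and orange lines lie beside it, most of them short and downstream.

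In 4 genes with a known start the nearest peak at a gene end lay 501 to 3000 bp away from it: Zfp326, which encodes a protein that joins RNA polymerase II elongation to splicing, at 556 bp, Zfp653 at 518 bp, Zscan10, a pluripotency factor gene, at 1373 bp, and Zfp821 at 1566 bp. In 3 others it lay beyond the other end, far from the start: Zfp846 (25600 bp), Zfp541 (26731 bp) and Zfp523 (29939 bp). The peaks taken for Zfp523, Zfp541 and Zfp821 each covered the start of a neighbour, Def6, Napa and Ist1. For such genes the peak that met the rule gave no sign of RNA polymerase II at the zinc finger gene's own start. Zfp821 and Zfp541 had a listed start 10256 and 10070 bp from the upstream end of the span, where peaks were not looked for. The remaining 18 genes had no listed start, 3 of them on chromosome 18, and for these only the distance to a gene end is known.

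Some peaks were shared with neighbours. How common this is at other protein-coding genes was not computed, so the counts are not given as particular to zinc finger genes. In 44 of the 134 genes (32.8%) a peak also lay within 3000 bp of an end of another protein-coding gene. A start of another annotated gene lay inside a peak in 30 genes, and in 22 of these the zinc finger gene's own start was covered too. Examples are Zfp277 with the guanine exchange factor gene Dock4, Zfp91 with the leupaxin gene Lpxn, Zfp142 with the mitochondrial chaperone gene Bcs1l, Zfp830 with Cct6b, Zfp408 with Arhgap1, Zfp664 with Ccdc92 and Zscan29 with Tubgcp4. For Zfp91, the peak of 1335 bp on chromosome 19 from 12795646 held the starts of Zfp91, Lpxn and Gm44505, so it cannot be told which of them it belongs to. Without the 30 genes, a choice made after seeing the data, the median width of the remaining 104 was 595 bp. The other protein-coding genes were not filtered in this way, so their median width is no match for this value.

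There were 7 peaks shared by 2 members each. On chromosome 17 the starts of Zfp942 and Zfp943 faced away from each other under the same 1334 bp peak, from 21961957 to 21963290. On chromosome 6 Zfp786 and Zfp398 shared 886 bp over both starts, and on chromosome 7 Zfp784 and Zfp580 shared 487 bp over both. The other shared peaks covered fewer starts: that of Zfp53 and Zfp52 (727 bp) lay over the start of Zfp52, and those of Zfp13 and Zscan10 (839 bp), Zkscan14 and Zkscan5 (766 bp) and Zfp84 and Zfp30 (337 bp) lay over no listed start. Neither Zkscan14 nor Zkscan5 had a start in the table.

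A single peak at the ends was the rule, with 117 genes having 1, 16 having 2 and Zfp53 having 3. Those with 2 or more made up 12.7% of the set, against 18% of the other protein-coding genes with these marks. The peaks of Zfp53 measured 358, 710 and 727 bp, and only the second covered its own start. Zfp207, whose product takes part in spindle assembly and splicing, had peaks of 832 bp over its start and 829 bp within the gene. Zfp148 had 597 bp at its start and 385 bp beyond its far end. Zfp174 had 532 bp at its start and 431 bp just beyond its far end, over a start of Naa60. In all, 145 distinct peaks served the 134 genes and covered 98.7 kb.

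At the distance limit of 3000 bp the choice of genes rested on few cases. The members with the most distant peaks were Zfp647 (2108 bp from an end, beside the ribosomal protein gene Rpl8), Zfp541 (2236 bp), Zkscan14 (2296 bp) and Zkscan5 (2691 bp). Just outside were 5 genes without H3K9me3: Zfp831 (3211 bp), Zfp59 (3415 bp), Zfp658 (3462 bp), Zfp516 (3661 bp) and Zfp260 (3768 bp).

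The set spread over 19 chromosomes, most of all chromosome 7. That chromosome held 34 of the 134 genes (25.4%), and it also held 93 of the 388 zinc finger genes. Chromosome 17 held 18 members, chromosome 8 held 12 and chromosome 13 held 10. The share of a chromosome's zinc finger genes that were members varied, among chromosomes with more than 15 such genes, from 48.0% on chromosome 8 (12 of 25), 47.4% on chromosome 11 (9 of 19), 47.1% on chromosome 6 (8 of 17) and 42.9% on chromosome 17 (18 of 42) to 27.0% on chromosome 13 (10 of 37), 24.0% on chromosome 2 (6 of 25) and 10.3% on chromosome 4 (3 of 29). On chromosome 4, 19 of the 29 carried H3K9me3, 18 of them without RNA polymerase II. Of the chromosomes with fewer zinc finger genes, chromosome 16 had 4 members of 5, chromosome 15 had 5 of 10 and chromosome 10 had 0 of 5.

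Members lay inside runs of zinc finger genes as often as outside them. A run was taken as 3 or more zinc finger genes with at most 200 kb between neighbours. The 32 runs held 199 zinc finger genes, of which 68 (34.2%) were members, and outside runs 66 of 189 (34.9%) were. H3K9me3 lay in the span of 27.6% of the genes in runs and of 22.2% of those outside. Of the 68 members in runs, 43 stood in runs that also held a gene with H3K9me3 and 25 in runs without one. Runs of the first kind also held most of the zinc finger genes in runs, so the counts do not show that members were more frequent there. Among neighbouring zinc finger genes of a run, 84 pairs included a member. In 30 both genes were members, in 40 the other gene had neither mark, and in 14 the other gene carried H3K9me3. The makeup of pairs without a member was not computed, so no leaning toward or away from a mark is read from these counts.

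The runs differed in their makeup. In 3 of them every zinc finger gene was a member. These were Zfp263, Zfp174 and Zfp597 on chromosome 16 (3744099 to 3884377), Zfp213, Zfp13 and Zscan10 on chromosome 17 (23556767 to 23611019), and Zkscan14, Zkscan5, Zfp655 and Zscan25 on chromosome 5 (145194946 to 145292240). In 10 runs no gene was a member, among them the run of 12 genes on chromosome 4 (146449030 to 147849126), all with H3K9me3 and none with RNA polymerase II, and a run of 5 on chromosome 13 (21362820 to 21531114), Zscan12 to Zkscan8, with neither mark.

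The 2 runs with the most members held 8 each. On chromosome 7, from 29768552 to 30169775, the run of 15 genes held Zfp84, Zfp30, Zfp383, Zfp74, Zfp568, Zfp566, Zfp382 and Zfp146, with peaks of 208 bp (Zfp74) to 1002 bp (Zfp146) and a median of 440 bp. Zfp568 encodes a KRAB protein that in mice silences a placental Igf2 transcript, and its peak was 339 bp wide. In the midst of this run Zfp420 had H3K9me3 alone and Zfp27 had both marks. On chromosome 17, from 21383707 to 22456689, the run of 18 genes held Zfp54, Zfp51, Zfp53, Zfp52, Zfp983, Zfp942, Zfp943 and Zfp994, with peaks of 701 to 1357 bp and a median of 787 bp. Here the members stood toward 1 side, and the genes with H3K9me3 (Zfp947, Zfp944, Zfp758 and Zfp946) toward the other, with Zfp994 between Zfp947 and Zfp944. On chromosome 13 a run of 19 genes from 67038594 to 67827000 held 4 members, Zfp457, Zfp953, Zfp456 and Zfp87 (352 to 523 bp), among 7 genes with H3K9me3. Reads from near-identical copies can be placed on the wrong copy, so which gene of such a run carried a peak is uncertain.

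Other runs with 3 or more members were mostly short. On chromosome 7 one from 127233061 to 127615785 held Zfp553, Zfp771, Zfp747, Zfp764, Zfp688 and Zfp689 (536 to 792 bp) among 8 genes. Another, from 4915181 to 5053723, held Zfp628, Zfp524, Zfp784 and Zfp580 (255 to 790 bp) among 6, and one from 12768090 to 12985717, held Zscan22, Zfp324 and Zfp446 (360 to 917 bp) among 7. On chromosome 6, from 47815536 to 48086986, Zfp786, Zfp398, Zfp212 and Zfp746 were 4 of 7 genes (593 to 1069 bp). Zfp746 encodes a repressor that the Parkin ligase degrades. On chromosome 8 there were Zfp868, Zfp869 and Zfp963 (674 to 884 bp) among 5 genes from 69610654, and Zfp882, Zfp617 and Zfp961 (496 to 799 bp) among 4 genes from 71882068. On chromosome 17 Zfp871, Zfp870 and Zfp472 (256 to 650 bp) were 3 of 8 genes from 32765496 to 33110707. In all, 13 runs held 3 or more members, 56 genes together.

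The remaining 66 members stood outside runs, 53 of them alone and 13 in pairs of zinc finger genes. The paired ones were Zfp692, Zfp672 and Zfp287 on chromosome 11, Zfp574, Zfp526, Zfp715 and Zscan2 on chromosome 7, Zfp775 and Zfp637 on chromosome 6, and Zfp825, Zfp707, Zfp101 and Zfp275 elsewhere. Their peaks ranged from 298 bp (Zfp275, the member on the X chromosome) to 1308 bp (Zfp526, with Dedd2). Among the lone ones several encode proteins with roles outside DNA binding. Zfp598, a ubiquitin ligase gene of stalled ribosomes, had 647 bp, Zfp346, which encodes a protein binding double-stranded RNA, had 487 bp, and Zfp473, whose human counterpart acts in histone messenger RNA processing, had 1060 bp.

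By median distance H3K9me3 lay about as near to members as to zinc finger genes with neither mark. It lay nearer to both than to other genes with RNA polymerase II and no H3K9me3. The nearest H3K9me3 peak outside the span lay a median of 166 kb away, against 169 kb for zinc finger genes with neither mark and 427 kb for the other protein-coding genes with RNA polymerase II and no H3K9me3. Within 100 kb there was one for 49 members (36.6%), against 37.6% of the zinc finger genes with neither mark and 14.1% of the other genes. Within 10000 bp there was one for 6 members (4.48%), against 3.82% of the zinc finger genes with neither mark and 1.91% of the other genes. Of all protein-coding genes, 3.88% had H3K9me3 that near but not inside. The closest was at Zfp994, whose neighbouring H3K9me3 peak of 641 bp ended 323 bp from its span. The others were Zfp942 (2117 bp), Zfp236 (2187 bp), Zfp747 (2273 bp), Zfp146 (6226 bp) and Zfp764 (9498 bp). Zfp747 and Zfp764 had the same nearest H3K9me3 peak, 522 bp wide. None of the 145 RNA polymerase II peaks of the members overlapped an H3K9me3 peak.

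On the other side of that limit, the 28 zinc finger genes with both marks usually carried them far apart. The gap between the peaks had a median of 12560 bp and was over 1000 bp in 26 of the 28. The smallest stretch of H3K9me3 in a span was 305 bp, in Zfp273, and only in Zfp180 did the peaks overlap. Zfp809, which encodes a KRAB protein that silences murine retroviruses, had a 450 bp RNA polymerase II peak and 1466 bp of H3K9me3, 22465 bp apart.

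R-loop and DDX55 peaks were rare at the members, as at protein-coding genes at large. An R-loop peak lay in the span or within 3000 bp of an end of 2 of the 134 genes, Zfp143 and Zfp747, where 1.8% of all protein-coding genes and 1.19% of those with RNA polymerase II and no H3K9me3 had one. The members' share lay between these. That of Zfp143 was 642 bp wide, from 110059540 to 110060181 on chromosome 7, and ended 2 bp from the start of the RNA polymerase II peak. That of Zfp747 was 286 bp wide, from 127370138 to 127370423, lay 5026 bp from the nearest RNA polymerase II peak and overlapped the H3K9me3 peak beside this gene, which spans 127369743 to 127370264. The R-loop list is also named by RNase H-treated samples, so these peaks are not known to be sensitive to it. A DDX55 peak was found at 0 of the 134, where 0.42% of all protein-coding genes and 0.447% of those with RNA polymerase II and no H3K9me3 had one, so a set of this size would hold few at that share.

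Promoters of the members held more CpG dinucleotides than those of the other zinc finger genes. In windows from 250 bases before to 50 bases after the most upstream start that RefSeq lists, the ratio of observed to expected CpG had a median of 0.723 over 116 members (interquartile range 0.541 to 0.853). It was 0.519 over 80 zinc finger genes with H3K9me3 (0.376 to 0.698) and 0.563 over 124 with neither mark (0.382 to 0.739). The 80 joined 55 genes with H3K9me3 only and 25 that also had RNA polymerase II. These 2 kinds were not separated here or in the motif counts, so members were not compared with the 25 alone. The 5780 other genes with RNA polymerase II and no H3K9me3 had a median of 0.808, and all 17492 protein-coding genes in the table one of 0.577. A ratio of 0.6 or more, a usual bound for CpG islands, was reached by 69.0% of the members, by 41.2% of the zinc finger genes with H3K9me3, by 46.0% of those with neither and by 79.4% of the other genes. For 16 of the 116 members that listed start lay over 500 bp from the upstream end of the span, and for 6 of them over 3000 bp, up to 47285 bp for Zfp638, so their windows may not be where the peak lay. Without such genes in any set, a choice made after seeing the data, the median ratio was 0.713 over 100 members, 0.513 over 69 zinc finger genes with H3K9me3 and 0.518 over 100 with neither, against 0.816 over the 5058 other genes. The ZNF143 letters described next were then found in 17.0%, 18.8% and 21.0% of the zinc finger sets, against 5.65% of the other genes. Over all windows, the median GC content was 56.5% in members, 52.8% and 53.3% in these other zinc finger groups, and 61.7% in the other genes.

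**Figure D3:**
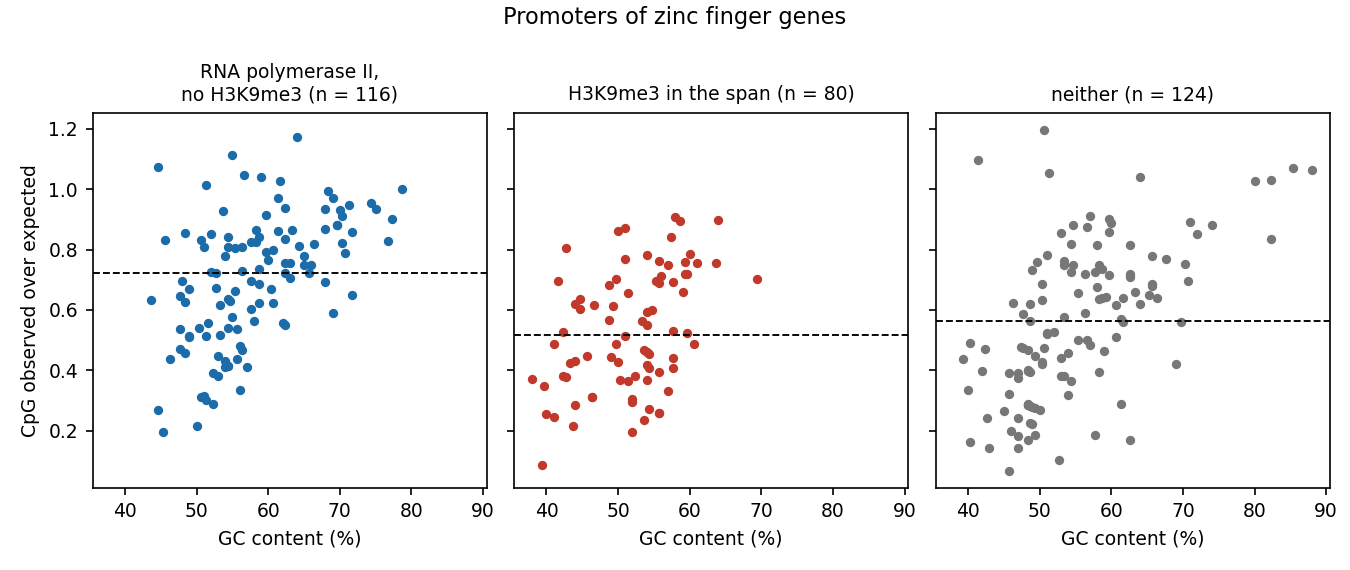
Ratio of observed to expected CpG (vertical axis) against GC content in % (horizontal axis) for the promoters of zinc finger genes, 1 point per gene, split into genes with RNA polymerase II and no H3K9me3 (left), with H3K9me3 in the span (middle) and with neither (right). The dashed lines are the medians, 0.723, 0.519 and 0.563, and the points of the groups overlap widely. The middle panel includes genes that also had RNA polymerase II.

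Letters known from the binding motif of human ZNF143, the counterpart of Zfp143, were common in zinc finger promoters of every kind. The letters ACTACA, any 3 bases and CC, searched on both strands, were found in 17 of 116 member promoters (14.7%, exact Clopper-Pearson 95% interval 8.78 to 22.4, for counting error only). They were found in 20.0% of zinc finger promoters with H3K9me3 and in 20.2% of those with neither mark, against 5.45% of the other genes with RNA polymerase II and no H3K9me3 and 3.57% of all protein-coding genes. The members' share was thus not above that of the other zinc finger promoters. Of the 17 genes, 10 were on chromosome 7, which held 34 of the 134 members. Of these 10, 5 stood in the run from Zfp84 to Zfp146, which held 8 members. The promoter of Zfp143 itself held no match in this window.

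Of the 18 matches in these promoters, 8 were on the gene's strand and 10 on the other, and the first base lay a median of 77 bases before the start. From 9 genes a match is shown to compare the bases around the motif, each with 12 bases on either side, 5′ to 3′ on the strand of the match, with the motif in capitals (RefSeq, GRCm38.p6). In 17 of the 18 the next base after the motif was C.
Zfp1: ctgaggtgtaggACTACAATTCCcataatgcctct
Zfp692: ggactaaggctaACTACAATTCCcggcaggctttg
Zfp84: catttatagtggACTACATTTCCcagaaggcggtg
Zfp383: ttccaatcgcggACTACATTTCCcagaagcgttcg
Zfp74: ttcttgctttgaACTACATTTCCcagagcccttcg
Zfp566: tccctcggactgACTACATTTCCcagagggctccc
Zfp146: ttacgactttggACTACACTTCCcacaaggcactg
Zfp457: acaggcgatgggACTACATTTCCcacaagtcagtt
Zscan2: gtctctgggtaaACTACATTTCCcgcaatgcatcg
The windows are Zfp1 chr8:111643406-111643440 (minus strand), Zfp692 chr11:58307009-58307043 (plus strand), Zfp84 chr7:29768518-29768552 (minus strand), Zfp383 chr7:29908464-29908498 (plus strand), Zfp74 chr7:29954093-29954127 (plus strand), Zfp566 chr7:30090564-30090598 (minus strand), Zfp146 chr7:30169848-30169882 (plus strand), Zfp457 chr13:67306468-67306502 (plus strand) and Zscan2 chr7:80860783-80860817 (plus strand). Zfp74, Zfp383, Zfp566 and Zfp84 belong to the same run of chromosome 7 and share ACTACATTTCC. These letters are not particular to the run, since Zfp457 on chromosome 13 and Zscan2 elsewhere on chromosome 7 hold them too. Zfp146 of the run has ACTACACTTCC instead. A match is not evidence that the factor is bound, since no binding of it was measured.

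The members' share of the SP letters was below that of other genes with RNA polymerase II and no H3K9me3. For the ETS, NRF1, TATA, NFY, CRE and YY1 letters the shares of these sets lay closer together, and for ETS they were nearly equal. The NRF1, TATA, CRE and YY1 shares rest on few members, so no direction is read from them. The ETS letters CCGGAAG were found in 20.7% of member promoters, 26.2% of zinc finger promoters with H3K9me3 and 24.2% of those with neither, against 20.8% of the other genes with RNA polymerase II and no H3K9me3 and 11.9% of all. The NRF1 letters GCGC, any base and TGCGC were found in 11.2%, 5.00%, 6.45%, 13.1% and 6.66% of the same sets in the same order. The SP letters GGGCGG were found in 51.7%, 38.8%, 38.7%, 67.3% and 46.3%, and the NFY letters CCAAT in 46.6%, 65.0%, 42.7%, 41.0% and 39.2%. The cyclic AMP element TGACGTCA was found in 6 members (5.17%), among them Zfp335 and Zfp266, against 5.00%, 0.806%, 3.84% and 2.33% of the other sets. The YY1 letters AAGATGGCG were found in 6 (5.17%), Zfp207, Zfp292, Zfp341, Zfp39, Zfp617 and Zfp882, against 2.50%, 0.806%, 3.81% and 1.92%. The TATA letters TATAAA were found in 7 members (6.03%), among them Zfp219 and Zfp746, against 3.75%, 7.26%, 6.89% and 13.3%. All letters were searched on both strands, and matches of different motifs overlapped in member promoters only for ETS with SP (2 genes) and NFY with SP (2 genes).

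**Figure D4:**
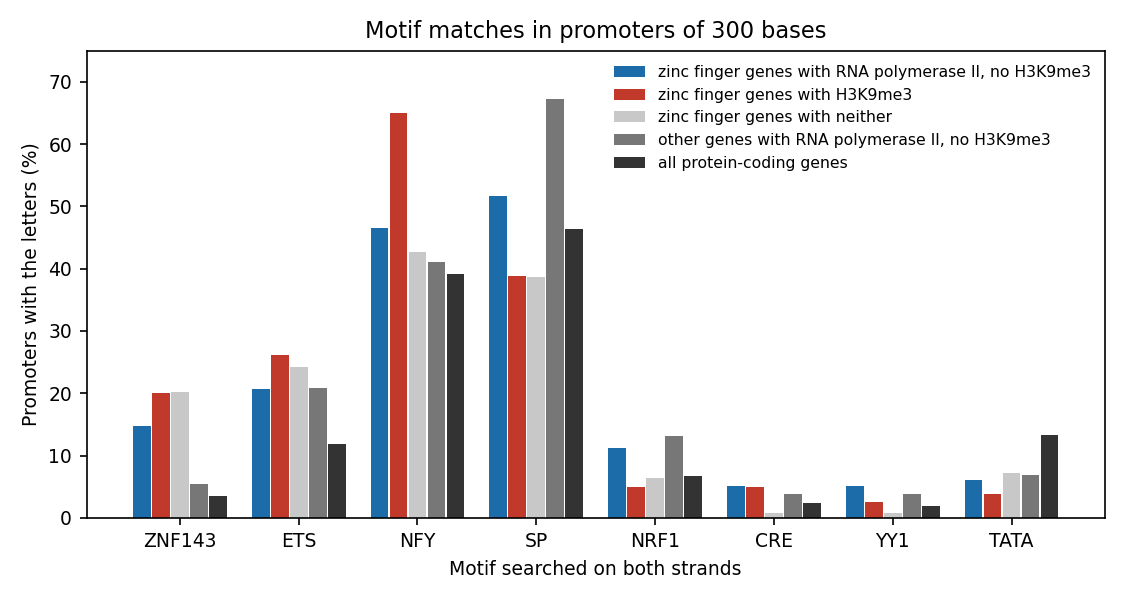
Share of promoters of 300 bases (%, vertical axis) that held each motif on either strand (horizontal axis), for the 116 zinc finger genes with RNA polymerase II and no H3K9me3 (blue), 80 zinc finger genes with H3K9me3 (red), 124 with neither (light grey), 5780 other genes with RNA polymerase II and no H3K9me3 (mid grey) and all 17492 protein-coding genes (dark). The ZNF143 bars of the 3 zinc finger groups (14.7%, 20.0% and 20.2%) stand above those of the other genes (5.45%) and of all genes (3.57%). The red bars include genes that also had RNA polymerase II.

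Among 30 zinc finger genes listed for a known role, 14 were members, 3 carried H3K9me3 and the other 13 had neither mark. Over the whole family 34.5% were members and 25% carried H3K9me3. The members were Zfp143, Zfp335, Zfp148, Zfp281, Zfp91, Zfp207, Zfp326, Zfp384, Zfp568, Zfp106, Zfp687, Zfp263, Zfp131 and Zscan21. Zfp384, whose human counterpart is a fusion partner in acute leukaemia, had 382 bp, Zfp131 669 bp, Zfp263 1014 bp and Zscan21 988 bp. The H3K9me3 carriers were the germline and stem cell gene Zfp42, the imprint regulator gene Zfp445 and Zfp809. Those with neither included the imprint regulator gene Zfp57, the epidermal factor gene Zfp750, and Zfp423 and Zfp521, factors of fat and blood precursors. Of 22 genes for partners of these proteins in silencing, 15 had RNA polymerase II at an end and 0 had H3K9me3 in the span, where 33.5% and 5.4% of all protein-coding genes did. With so few genes, 0 is not far from that share of H3K9me3. Those with a peak included Trim28, Atf7ip, Cbx3, Cbx5 and Morc2a, and those without included Setdb1, Cbx1 and Dnmt1.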

How the data were processed

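CUT&Tag peak lists of DDX55 KO and WT CD4+ naive T cells were used. The authors deposited 1 merged list per target whose values are start and end coordinates in bp, another unit than counts or signal, with no score. Per the submitters' processing notes the build was mm10, and the tools named were MACS3 3.0.0b1, Bowtie2 2.5.0, fastp 0.12.4, ChIPseeker 1.30.3 and SAMtools 1.15.1, with no role or order. Peak thresholds, the way samples were merged, any pooling and any use of IgG or spike-in DNA are not given in the sources used here. A looser threshold would give more and wider peaks, and merging across samples widens them.

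Genes were the protein-coding genes of a RefSeq table of GRCm38.p6 on chromosomes 1 to 19, X and Y. Starts, strands and promoter sequences came from a RefSeq promoter table with entries for 116 of the 134 members. At least 1 bp of a peak had to lie in the window. Overlaps were computed with Python 3.11.15, numpy 2.4.6 and pandas 2.3.3, figures with matplotlib 3.10.9. On the deposited RNA polymerase II list the code and bedtools 2.31.1 both found 162 zinc finger genes with a peak at an end, and simulated peaks with known places were recovered. With no value per sample, no test was made. The members and lists were chosen with earlier results of these data known. Genes named were the 10 widest and 5 narrowest peaks, genes with 3 or more peaks or a peak shared with another member, runs with 3 or more members, genes near the limits, with R-loop or DDX55 peaks or with H3K9me3 within 10000 bp, and the list of known roles. A planned part on zinc finger counts needed protein sequences and was not run. One marker gene of the CD4 naive T cell list is not reported here. Other genes named were chosen after their values were seen, as were the motifs and the CpG ratio. Alternatives were other windows, overlap rules, wider peaks only and run gaps.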

Additional observations from a re-analysis of the deposited data

How the results depend on the processing

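The set, its widths, its starts, its runs, its R-loop count and its promoter measures were recomputed under other settings, 57 values in all. Counts were held to have moved if they changed by over 1.5 times, medians if by over 10%, and the share of promoters with the ZNF143 letters if it left its 95% interval. That interval served only as a fixed bound, since the settings shared promoters. By these bounds 49 values did not move and 8 did. With the wider 50% of the RNA polymerase II peaks only, the set fell to 66 genes with a median width of 885 bp, 44 with a covered start, 33 in runs and 1 with an R-loop peak, since fewer peaks were used. The R-loop count was 0 with gene-end windows of 1000 bp, 4 with 10000 bp, and 1 when H3K9me3 was also counted up to 3000 bp outside the span; DDX55 stayed at 0 in each. Windows of 1000 and 10000 bp gave sets of 118 and 148 genes. Without the genes whose peaks held another gene's start, with every listed start, and with promoters within 500 bp of the span's upstream end only, all added after the data were seen, the share of promoters with the ZNF143 letters was 17.2%, 15.5% and 17.0%. No paired analysis was possible because the merged lists hold no value per sample, and leaving out a replicate was not possible for the same reason. Depth per sample is unknown, so a gene without a peak may lie below the detection limit.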
